A study of Sus scrofa with 4 samples.

Results

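Mitosis genes were examined in cells sorted from the epidermis of pigs in which H2B-GFP, a histone joined to green fluorescent protein, had been knocked into exon 1 of 1 allele of LGR5, the other allele being left intact. The genes were 40 in number, chosen by name for their roles in the spindle, the kinetochore, the mitotic kinases and cytokinesis, and all 40 were found by symbol among the 29837 named genes of the count table. RNA came from 2 untreated juvenile pigs, 88R and 95R, with 1 library of GFP-high cells (LGR5-high) and 1 library of GFP-negative cells (LGR5-negative) from each. The pigs descend from edited fetal fibroblast clones by nuclear transfer, and the strain is not given in the sources used here. Because GFP sits on a stable histone, its signal is diluted when a cell divides, so the sort depends on past divisions as well as on LGR5 promoter activity, and the 2 cannot be told apart in these libraries.

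Entry into mitosis is driven by CDK1 bound to cyclin B, and PLK1 and the Aurora kinases then build the spindle. Kinetochores join chromosomes to spindle fibres, a checkpoint holds the cell until every chromosome is attached, and the anaphase-promoting complex then removes cyclin B and lets the cell divide. Transcripts of these genes are mostly made late in the cell cycle, so that in skin they are known from the basal layer, the outer root sheath and, above all, the hair matrix, whereas bulge stem cells are known for dividing rarely.

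Each library held between 30696803 and 32463362 counts on named genes, and every member had between 47 and 6518 counts in every library. The sort could be checked on LGR5, which had 4551 (88R) and 6224 (95R) counts in sorted GFP-high cells against 36 and 109 in GFP-negative cells. All 40 members passed the filter on low counts, as did 15980 genes in all. Levels are given as CPM, counts scaled to library size by the trimmed mean of M-values (TMM), and fold changes are LGR5-high over LGR5-negative. P-values are from the quasi-likelihood test of edgeR and were adjusted by Benjamini-Hochberg over the 15980 genes. The test was fitted with the population alone and, since each pig gave both populations, also with the pig as a replicate block. With so few libraries, the blocked fit takes its estimate of variation largely from all genes together. Its small p-values are therefore no measure of agreement between many animals.

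Mitosis genes were for the most part higher in LGR5-high cells, with MKI67 at 2.08-fold, CCNB1 at 2.27-fold and PLK1 at 2.2-fold of their LGR5-negative levels. In each pig by itself, 37 of the 40 members were higher in the LGR5-high library and 3 were lower, namely INCENP, TTK and ANLN. Of all 15980 genes tested, 7026 were higher in both pigs and 6692 were lower in both. Summed over the members, the LGR5-high library of pig 88R had 1740 CPM and its LGR5-negative library 1180, and pig 95R had 1290 and 863. The LGR5-high sum was thus the larger one in both pigs, by 1.47-fold in 88R and 1.49-fold in 95R, and both LGR5-high sums lay above both LGR5-negative sums. INCENP, which ran the other way, held 110 CPM of the LGR5-negative sum in 88R and 161 CPM in 95R. The near-equal ratios of the sums therefore do not show equal differences in the 2 pigs. The members' median log2 ratio was 0.77 in 88R and 1.18 in 95R. In bulk RNA of this kind, a larger share of dividing cells and more RNA per dividing cell cannot be told apart.

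Without the block, 18 members were called higher and 1 was called lower at an adjusted p-value under 0.05, beside 22.7% of all genes called higher and 22% called lower. With the replicate block 32 members were called higher and 2 lower, beside 28.5% and 27.2% of all genes. All 18 members called higher without the block were called higher with it. The median log2 fold change of the members was 0.93, beside 0.02 over all genes tested, and with the block it was 0.96. Both LGR5-high values lay above both LGR5-negative values for 29 members and below them for 3, beside 39.2% and 37.4% of all genes. With library size alone as the scaling, the median over all genes moved to 0.24 and that of the members to 1.15, and all 40 members kept their sign.

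The count of calls without the block changed with single libraries. Without the LGR5-high library of pig 88R, edgeR called 0 members higher, with 4 at an unadjusted p-value under 0.05, and the median was 0.69. Without the LGR5-negative library of 88R it called 30, with a median of 1.41. Leaving out the LGR5-high library of 95R gave 9 calls and a median of 1.10, and leaving out its LGR5-negative library gave 10 calls and a median of 0.56. The median was above 0 in each case.

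**Figure D1:**
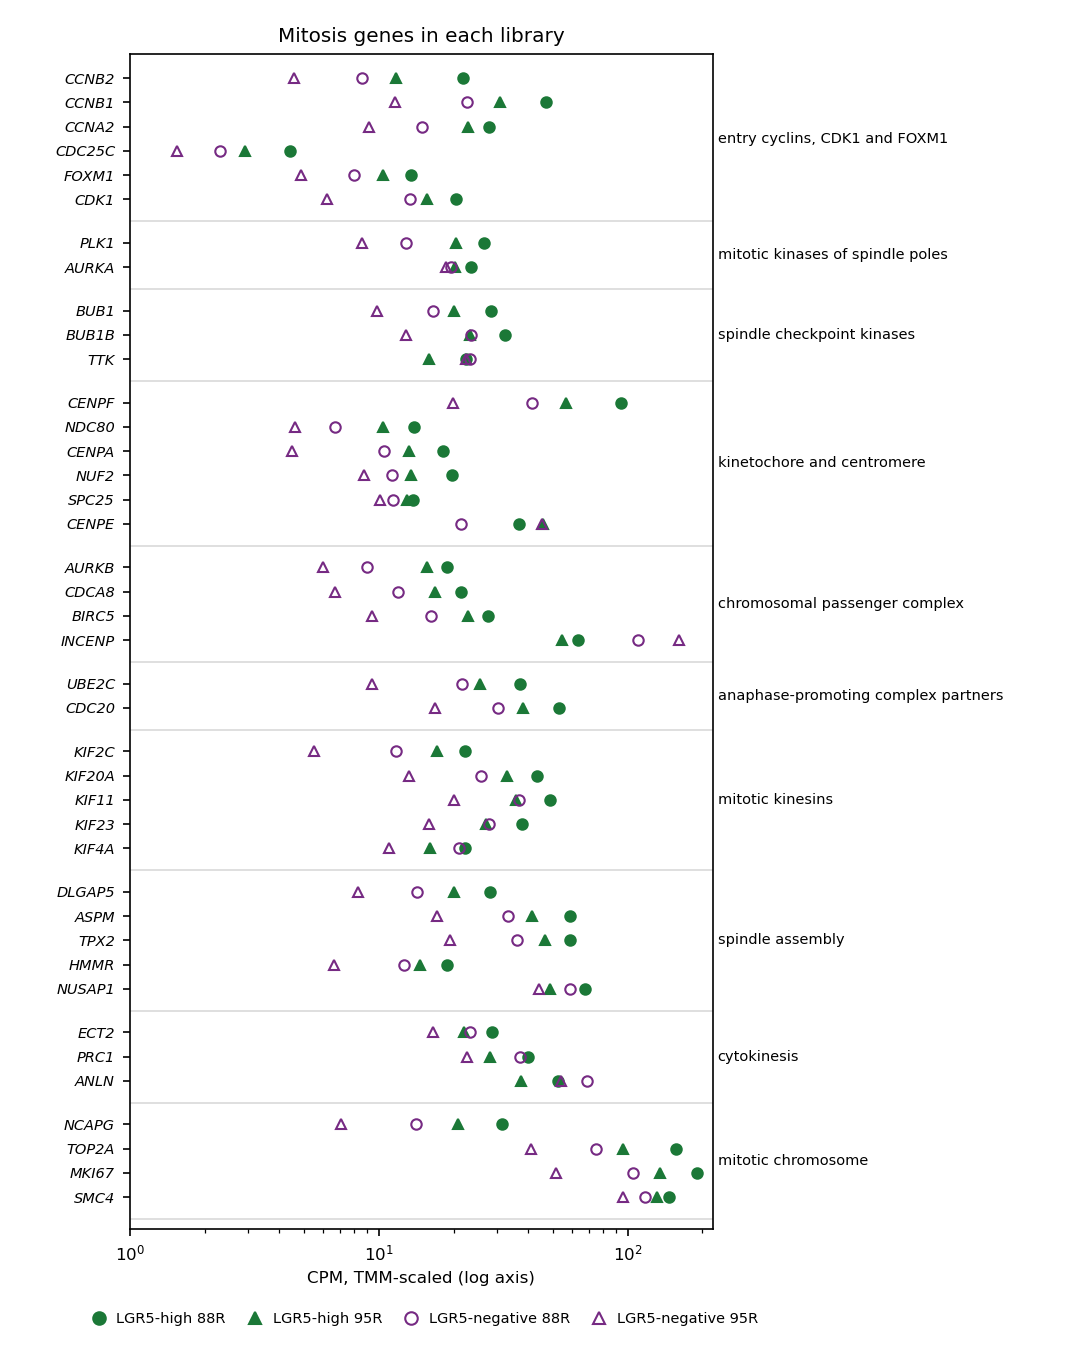
TMM-scaled CPM (log axis) of each of the 40 mitosis genes in the 4 libraries, grouped by role, with LGR5-high as filled green and LGR5-negative as open purple symbols, circles for pig 88R and triangles for pig 95R. Values should be compared within a row; in most rows both filled symbols lie to the right of both open ones, and INCENP, with 54.5 and 63.0 CPM in LGR5-high against 110 and 161 in LGR5-negative, is the reverse.

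Among the genes of mitotic entry, 4 of 6 were called higher without the block and all 6 with it. CCNB1, which encodes cyclin B1, had 46.9 and 30.7 CPM in LGR5-high, given here and below in the order 88R and 95R, against 22.6 and 11.6 in LGR5-negative. The log2 fold change of CCNB1 came to 1.18 (standard error 0.349, adjusted p = 0.0379). CCNB2, the gene of the second mitotic B cyclin, had 21.8 and 11.8 CPM in LGR5-high, against 8.56 and 4.56 in LGR5-negative, a log2 fold change of 1.36 that was the largest of the 40. The cyclin A2 gene CCNA2, whose product acts in S phase and early mitosis, had a log2 fold change of 1.06 (adjusted p = 0.0184). FOXM1, a transcription factor of late cell cycle genes, had 13.5 and 10.4 CPM in LGR5-high, against 8 and 4.9 in LGR5-negative, with a log2 fold change of 0.89 (adjusted p = 0.0440). CDK1, the kinase bound by these cyclins, had 20.4 and 15.6 CPM in LGR5-high, against 13.4 and 6.22 in LGR5-negative. It did not pass without the block (log2 fold change 0.88, adjusted p = 0.0984) and passed with it (0.94, adjusted p = 0.000117, and 0.000117 to 1 over the 13 alternatives). CDC25C, the phosphatase that activates CDK1, was the least abundant member by counts, with 47 to 151 per library, and its log2 fold change was 0.92 (adjusted p = 0.0734).

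Of the spindle pole kinases, PLK1 rose and AURKA was not called under either fit. PLK1 had 26.6 and 20.5 CPM in LGR5-high, against 12.9 and 8.57 in LGR5-negative, a log2 fold change of 1.14 (standard error 0.237, adjusted p = 0.0120). AURKA had 23.6 and 20.3 CPM in LGR5-high, against 19.5 and 18.7 in LGR5-negative, a log2 fold change of 0.20 (standard error 0.128, adjusted p = 0.248). The groups did not overlap for AURKA, but its values lay close together. TPX2, which activates AURKA on spindle fibres, had 58.9 and 46.4 CPM in LGR5-high, against 35.9 and 19.3 in LGR5-negative, a log2 fold change of 0.93 (adjusted p = 0.0461).

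The 3 spindle checkpoint kinases gave 0 calls without the block in edgeR, 1 at an unadjusted p-value under 0.05 and 1 each in DESeq2 and limma-voom. With the block BUB1 and BUB1B were called higher, with log2 fold changes of 0.90 and 0.64. TTK, the kinase that starts the checkpoint signal, went the other way. It had 22.4 and 15.9 CPM in LGR5-high, against 23.2 and 22.5 in LGR5-negative, so that it was nearly level in pig 88R and lower in LGR5-high in pig 95R. The log2 fold change of TTK was -0.26 (standard error 0.183, adjusted p = 0.298) and it was not called with the block.

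Kinetochore and centromere genes were called higher for 3 of 6 members without the block and 5 of 6 with it. CENPF, a large protein of the outer kinetochore, had 94.0 and 56.6 CPM in LGR5-high, against 41.2 and 19.9 in LGR5-negative, a log2 fold change of 1.3 (adjusted p = 0.0380). NDC80 and NUF2, partners in the complex that grips spindle fibres, had log2 fold changes of 1.11 and 0.73 and were called, whereas SPC25 of the same complex had one of 0.31 (adjusted p = 0.128). The NUF2 call (adjusted p = 0.0492) was lost with DESeq2 size factors, with all genes of at least 1 count and in limma-voom, and that of CENPF was lost in DESeq2. SPC25 had 13.7 and 13.0 CPM in LGR5-high, against 11.4 and 10.1 in LGR5-negative. CENPA, the histone that marks centromeres, had a log2 fold change of 1.07 (adjusted p = 0.0768), which passed with the block at 1.15. CENPE, a kinetochore motor, had 36.7 CPM in LGR5-high against 21.4 in LGR5-negative in pig 88R, but 45.9 against 45.2 CPM in pig 95R. The population ratio of CENPE was therefore seen in 1 pig and nearly absent in the other, with log2 ratios of 0.78 and 0.02. CENPE was still among the 5 called higher with the block (log2 fold change 0.39, adjusted p = 0.0286), although its groups overlapped. A call with the block thus need not mean a clear difference in both pigs.

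The chromosomal passenger complex, which corrects faulty attachments, was split. AURKB, its kinase, had 18.8 and 15.7 CPM in LGR5-high, against 9.01 and 5.99 in LGR5-negative, a log2 fold change of 1.2 (standard error 0.229, adjusted p = 0.00870). BIRC5 (survivin) and CDCA8 (borealin), the subunits that bring it to centromeres, rose by 0.97 and 1.04 on the log2 scale. INCENP, the scaffold that holds the complex together, fell. It had 63.0 and 54.5 CPM in LGR5-high, against 110 and 161 in LGR5-negative, a log2 fold change of -1.21 (standard error 0.192, adjusted p = 0.00459). INCENP was 2.31-fold higher in LGR5-negative cells, with log2 ratios of -0.80 in pig 88R and -1.56 in pig 95R, and was the 1 member called lower without the block. It was lower in LGR5-high in every alternative, and its adjusted p-value over the 13 alternatives lay between 2.01e-08 and 1, the highest values coming from Bonferroni adjustment and from the test on log2 CPM (0.134).

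CDC20 and UBE2C, partners of the anaphase-promoting complex, had log2 fold changes of 0.96 and 1.01. CDC20 had 53.2 and 38.2 CPM in LGR5-high, against 30.1 and 16.8 in LGR5-negative (adjusted p = 0.0442), and UBE2C passed with the block (adjusted p = 6.54e-06, and 6.54e-06 to 1 over the 13 alternatives) but not without it (adjusted p = 0.0866). Of the 5 mitotic kinesins, motors that slide or shorten spindle fibres, KIF2C was called higher without the block (1.19, adjusted p = 0.0401), and KIF11, KIF20A and KIF23 were added with it at 0.61, 1.02 and 0.60. KIF4A, which acts on chromosome arms and the midzone, had 22.3 and 16.1 CPM in LGR5-high, against 21.1 and 11.0 in LGR5-negative and was called under neither fit (0.26, standard error 0.326). For KIF11, KIF23 and KIF4A the LGR5-negative library of pig 88R exceeded the LGR5-high library of pig 95R, so the groups overlapped.

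Spindle assembly genes other than TPX2 ranged widely. DLGAP5, which bundles fibres near chromosomes, had a log2 fold change of 1.09 (adjusted p = 0.0295), and ASPM, a spindle pole protein, had one of 1.00 (adjusted p = 0.0523). HMMR, another spindle protein, had a log2 fold change of 0.79 (adjusted p = 0.0917) and passed with the block. NUSAP1, which binds fibres around chromosomes, had 67.2 and 49.0 CPM in LGR5-high, against 58.5 and 44.0 in LGR5-negative, a log2 fold change of 0.18 (standard error 0.198) that was called under neither fit.

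The 3 cytokinesis genes gave 0 calls in edgeR without the block, 0 at an unadjusted p-value under 0.05, and 0 in DESeq2 and limma-voom. PRC1, which bundles the fibres of the midzone, had 39.9 and 28.1 CPM in LGR5-high, against 37.1 and 22.6 in LGR5-negative. The groups overlapped, and the log2 fold change was 0.19 ± 0.274 (standard error). ECT2, which activates RhoA for the contractile ring, had a log2 fold change of 0.35 and was called higher with the block. ANLN, the scaffold of that ring, had 52.6 and 37.2 CPM in LGR5-high, against 69.0 and 53.9 in LGR5-negative. It was lower in LGR5-high in both pigs, with a log2 fold change of -0.45 (adjusted p = 0.116) without the block and -0.46 (adjusted p = 0.00082, and 0.00082 to 1 over the 13 alternatives) with it. KIF20A and KIF23, which also act in cytokinesis, are given with the kinesins.

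MKI67, the gene of the proliferation marker KI67, had 190 and 135 CPM in LGR5-high, against 105 and 51.5 in LGR5-negative. The ratio was 2.08-fold, and the log2 fold change of 1.06 (standard error 0.341) stood at an adjusted p of 0.0504 without the block and 1.61e-07 with it, between 1.61e-07 and 1 over the 13 alternatives. MKI67, ASPM, BUB1 and KIF20A were the 4 members with an adjusted p-value from 0.05 up to 0.06. TOP2A, which untangles DNA of sister chromosomes, had 157 and 96 CPM in LGR5-high, against 75 and 41 in LGR5-negative (log2 fold change 1.13, adjusted p = 0.0407, not called in DESeq2). Of the condensin genes, NCAPG had a log2 fold change of 1.3 (adjusted p = 0.0306) and SMC4, a core subunit shared by both condensins, one of 0.38 (adjusted p = 0.0446). SMC4 had 147 and 131 CPM in LGR5-high, against 117 and 96.3 in LGR5-negative, and its call was lost with DESeq2 size factors, with all genes of at least 1 count, and without any 1 library other than the LGR5-negative one of pig 88R.

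**Figure D2:**
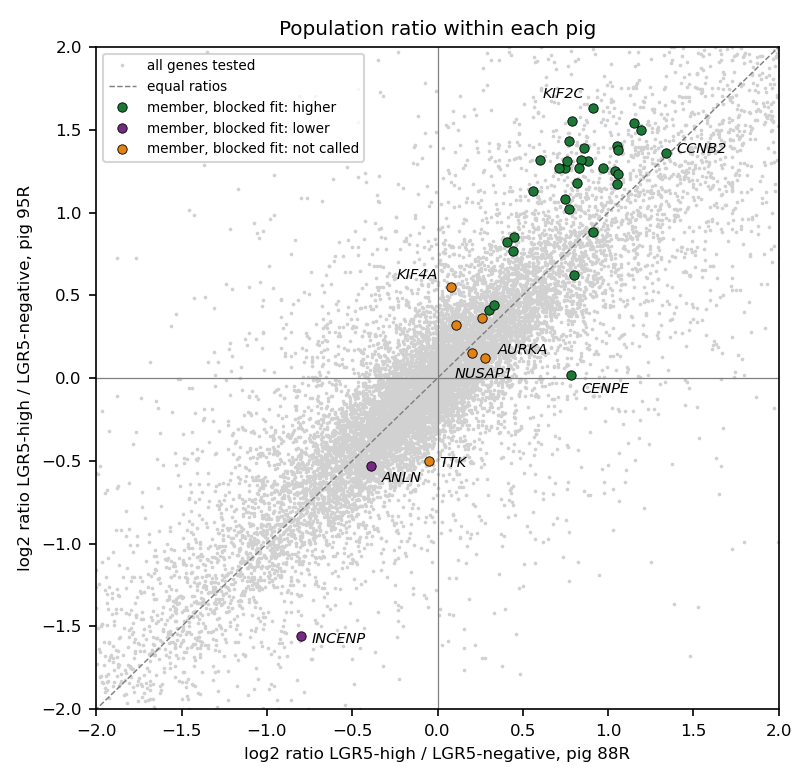
Log2 ratio of LGR5-high over LGR5-negative in pig 88R (horizontal) and pig 95R (vertical) for the 40 members (large points, coloured by the call with the replicate block) over all genes tested (grey, those outside the range of -2 to 2 not drawn). 37 members lie in the upper right, positive in both pigs, and 3 in the lower left, and 32 of the 40 lie above the dashed line of equal ratios.

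The 6 members called under neither fit were AURKA, TTK, SPC25, KIF4A, NUSAP1 and PRC1. In pig 88R the members' log2 ratios ran from -0.80 to 1.34 with a median of 0.77, and in pig 95R from -1.56 to 1.63 with a median of 1.18. The ratio was the larger one in pig 95R for 32 of the 40, with a median difference of 0.33 beside -0.01 over all genes. With 1 library for each pig and population, the difference between the ratios of the pigs could not be tested.

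The 2 pigs also differed in the level of these genes in both populations. All members but 1 (CENPE) were lower in 95R than in 88R in the LGR5-high libraries, and all but 2 (CENPE and INCENP) in the LGR5-negative libraries. The median log2 difference of 95R from 88R was -0.45 in LGR5-high and -0.80 in LGR5-negative, beside 0 and 0.01 over all genes. The pig was tested as a term of the blocked fit, a comparison added after the values had been seen. It called 25 members lower and 1 higher in 95R, beside 2.52% and 1.78% of all genes. Each side was a single pig, and the fit took the 2 populations of a pig as its replicates. The p-values below therefore do not measure variation between animals. TOP2A was 1.73-fold higher in 88R than in 95R (adjusted p = 5.76e-05), CENPF 1.84-fold (adjusted p = 9.31e-05), MKI67 1.68-fold (adjusted p = 0.000706) and CCNB1 1.71-fold (adjusted p = 0.00127). CENPE, the member called higher in 95R, had a log2 difference of 0.69 (adjusted p = 0.00854). The members not called between the pigs included AURKA, SPC25, TTK, SMC4 and INCENP, and also PLK1, AURKB, FOXM1 and CCNA2. With library size alone as the scaling, 12 members were called lower in 95R, and with DESeq2 size factors 20 were.

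**Figure D3:**
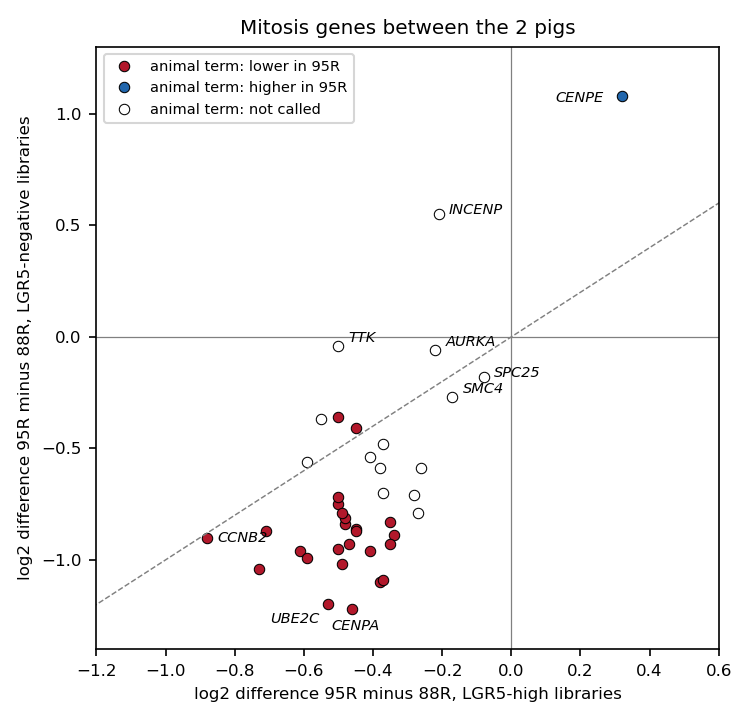
Log2 difference of pig 95R from pig 88R for the 40 members in the LGR5-high libraries (horizontal) and in the LGR5-negative libraries (vertical), coloured by the call on the pig in the blocked fit, with a dashed line of equal differences. Most members lie at the lower left, around the medians of -0.45 and -0.80, and CENPE alone is above 0 on both axes.

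Among other lists of mitosis genes, the further spindle and kinesin genes were also lower in 95R, with a median log2 difference of -0.50 and 9 of 21 called lower. The medians of the remaining mitosis lists lay between -0.15 and 0.03. Cohesin and condensin genes had a median of -0.15 with 4 of 20 called lower, and regulators of entry and exit one of -0.06 with 4 of 21. Further kinetochore genes had a median of -0.15 with 1 of 35 called lower, and genes of the anaphase-promoting complex one of 0.03 with 1 of 17. The 50 genes of DNA replication and the start of S phase had a median log2 difference of -0.05, with 1 called lower and 2 called higher. Of all genes, 2.52% were called lower in 95R and 1.78% higher. Fibroblast markers had a median of -0.32 with 1 of 6 called lower, and hair matrix markers one of -0.27 with 1 of 5. Suprabasal keratinocyte markers had a median of -0.16 and no calls. Melanocyte markers had a median of 1.11 with 2 of 6 called higher. Basal keratinocyte markers had a median of 0.03, and hair follicle stem cell and outer root sheath markers one of 0.10, each with 1 of 5 called higher. The median of the Langerhans cell markers was 0.52. The part of these cells in the difference was not tested, and the pig cannot be told apart from whatever was done on its tissue alone.

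Other genes of mitosis, taken from lists of 139 symbols of which 134 were found and tested, were called higher for 28 and lower for 11, with a median log2 fold change of 0.18. The share called higher was 20.9%, beside 22.7% of all genes, and the share called lower 8.21%, beside 22%. With the block the counts were 60 and 18, beside 28.5% and 27.2% of all genes. Further spindle and kinesin genes had a median of 0.68 with 6 of 21 higher and 0 lower, the latter also 0 in DESeq2, limma-voom and at an unadjusted p-value under 0.05. PSRC1, a spindle protein, had a log2 fold change of 1.35 (adjusted p = 0.00360), and the kinesin KIF15, which supports bipolar spindles, one of 1.06 (adjusted p = 0.0117). HAUS1 of augmin, which branches spindle fibres, had 0.70 (adjusted p = 0.0143). Further kinetochore genes had a median of 0.37 with 10 of 35 higher and 0 lower, 1 lower at an unadjusted p-value under 0.05, 0 lower in DESeq2 and limma-voom, and 3 lower with the block. CLASP1, which steers fibre growth at kinetochores, had 0.49 (adjusted p = 0.00509), CENPO of the inner kinetochore 1.04 (adjusted p = 0.0133) and SKA1 of the outer kinetochore 1.42 (adjusted p = 0.0196).

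Cohesin and condensin genes had a median log2 fold change of 0.18, with 25% called higher and 10% lower, beside 22.7% and 22% of all genes. Of the 20, 5 were higher, among them CDCA5 (sororin, which locks cohesin) with 1.24, SGO2, which protects it at centromeres, with 1.11 and SMC2, the condensin partner of SMC4, with 0.60. The 2 lower genes, WAPL and PDS5A, which release cohesin, had -0.43 and -0.30. Subunits and regulators of the anaphase-promoting complex had a median of -0.01, with 2 of 17 higher and 2 lower, or 11.8% each. FBXO5, an inhibitor of that complex, had 1.06 (adjusted p = 0.0153) and the subunit ANAPC15 had 0.66 (adjusted p = 0.00483), while its subunits CDC26 and ANAPC2 had -0.57 and -0.54.

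Regulators of mitotic entry and exit were called in both directions, 3 of 21 higher and 5 lower, with a median of 0.11. These are shares of 14.3% and 23.8%, beside 22.7% and 22% of all genes. CKS1B and CKS2, small subunits bound to CDK1, were lower, with 51.2 and 50.6 CPM of CKS1B in LGR5-high and 85.9 and 85.4 CPM in LGR5-negative. On the log2 scale they differed by -0.75 (adjusted p = 0.000993) and -0.80 (adjusted p = 0.00122). CDC25B, a phosphatase that activates CDK1, was lower by the same fit (-0.91, adjusted p = 0.00144), and PKMYT1, a kinase that holds CDK1 inactive, was higher (1.33, adjusted p = 0.0224). NEK6, a kinase of spindle assembly, had 2.01 (adjusted p = 0.00229), and the phosphatase CDC14A had 0.48 (adjusted p = 0.0351).

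Further cytokinesis genes had a median of 0.10 with 2 of 12 higher and 2 lower, or 16.7% each, beside 22.7% and 22% of all genes. The higher ones were MYH10 (non-muscle myosin, 1.53) and CIT (citron kinase, 0.61), and the lower ones KIF13A (-1.5) and CHMP4B (-0.27). Genes of centriole duplication had 0 of 8 called in edgeR without the block, in DESeq2 and in limma-voom, with 1 at an unadjusted p-value under 0.05. With the block 1 was called higher, PLK4, the kinase that starts duplication (log2 fold change 0.56). In the list of the MuvB and DREAM proteins, which hold late cell cycle genes off or on, MYBL2, the activating partner, had 53.2 and 45.9 CPM in LGR5-high, against 29.8 and 23.3 in LGR5-negative (log2 fold change 0.90, adjusted p = 0.00571). LIN37, a MuvB protein, had -0.50 (adjusted p = 0.0469), a call that was lost in limma-voom. The other 8 genes were not called without the block, and with it LIN9 was called higher (0.48) and LIN54 lower (-0.37).

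**Figure D4:**
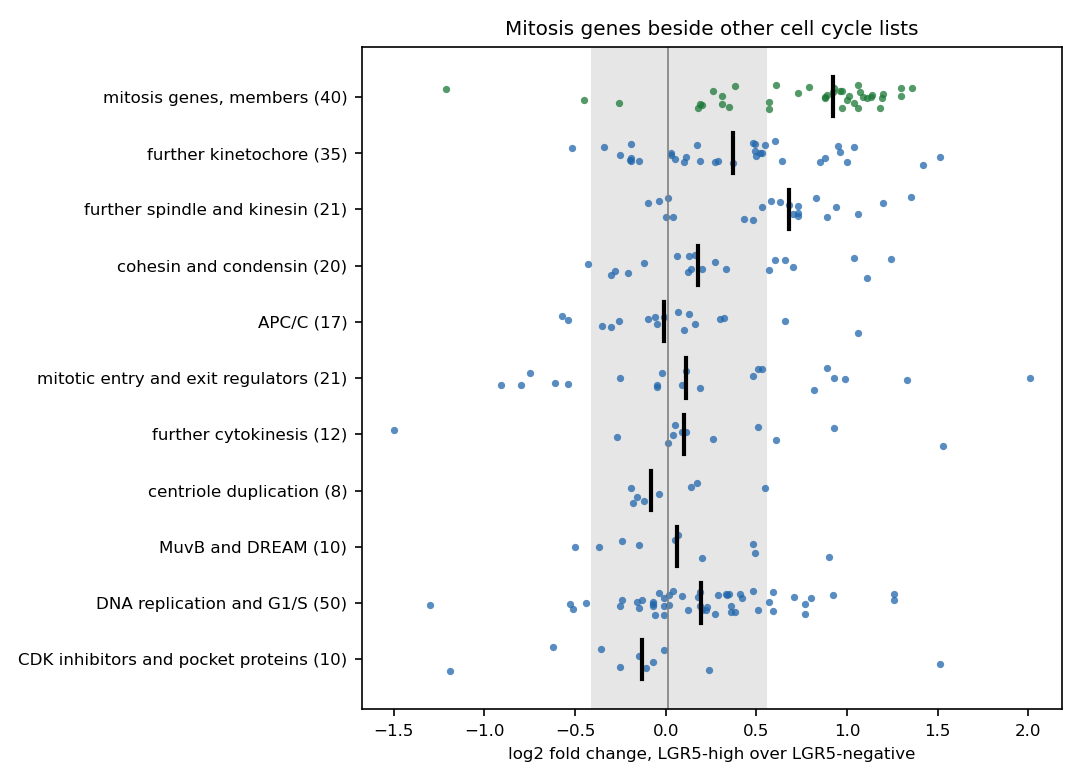
Log2 fold change of LGR5-high over LGR5-negative for the 40 members (green) and for the genes of 10 other cell cycle lists (blue), with the median of each list as a black bar and the interquartile range of all genes tested as the grey band. The medians are 0.93 for the members and 0.68 for the further spindle and kinesin genes, and -0.13 to 0.37 for the other 9 lists; the band shows the spread of single genes and is no measure for a median.

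Genes of DNA replication and the start of S phase, which act before mitosis, had a median log2 fold change of 0.20. Of the 50, 14 were higher and 4 lower, or 28% and 8%, beside 22.7% and 22% of all genes. UHRF1, which keeps DNA methylation through replication, had 1.26 (adjusted p = 0.00223), ORC1 of the origin complex 0.92 and MCM5 of the replicative helicase 0.71. RRM2, a subunit of ribonucleotide reductase, was lower at -1.3 (adjusted p = 0.000749), as was the checkpoint adaptor CLSPN at -0.53 and the histone mRNA binder SLBP at -0.44. Among 10 inhibitors of CDKs and their pocket protein targets, CDKN1A (p21) was lower, with 224 and 233 CPM in LGR5-high, against 547 and 500 in LGR5-negative (-1.19, adjusted p = 0.000294). CDKN2D (p19) was lower at -0.62 and CDKN1C (p57) was higher at 1.51 (adjusted p = 0.00452). The difference between the members and these lists was not tested.

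Markers of other cells moved between the populations as well, where 22.7% of all genes were called higher and 22% lower. Suprabasal keratinocyte genes, from layers that no longer divide, were lower in LGR5-high for 5 of 6, with summed levels of 5960 to 6540 CPM in LGR5-high and 56500 to 65700 CPM in LGR5-negative. Basal keratinocyte genes were lower for 2 of 5, at 29100 to 32300 CPM against 33500 to 36100 CPM. Langerhans cell and antigen-presenting genes were lower for 5 of 5, at 7.59 to 10.7 CPM against 125 to 184 CPM, and leukocyte genes for both of the 2 tested, at 1.12 to 1.74 CPM against 7.82 to 11.9 CPM, with CD3E, CD3D and CD2 at 0 counts in both LGR5-high libraries and at 0 to 3 counts in the LGR5-negative ones, too few to be tested. Melanocyte genes were lower for 4 of 6, at 61.9 CPM in both LGR5-high libraries against 82.7 to 255 CPM, and endothelial genes for 3 of 4, at 4.71 to 6.63 CPM against 17.1 to 18.6 CPM. Fibroblast genes were lower for 4 and higher for 2 of 6, at 728 to 1010 CPM against 248 to 403 CPM. The higher ones, COL1A2 with 497 and 561 CPM and COL1A1 with 142 and 331 CPM, made up most of the LGR5-high sums. COL3A1, DCN, LUM and PDGFRA were the 4 lower ones, so the sums run against most of these genes.

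Hair follicle stem cell and outer root sheath genes were higher in LGR5-high for 4 of the 5 tested, at 1570 to 1580 CPM against 114 to 141 CPM. Inner root sheath genes were higher for 3 of 4 and lower for 1, at 1140 to 1430 CPM against 571 to 617 CPM. GATA3, the lower one, had 280 and 271 CPM in LGR5-high and made up most of the LGR5-negative sums, with 500 and 531 CPM. KRT25, KRT27 and TCHH were 11.6-fold, 15.9-fold and 16-fold higher. Hair matrix genes were higher for 3 and lower for 1 of 5, at 264 to 348 CPM against 281 to 316 CPM. DLX3, the lower one, had 145 and 104 CPM in LGR5-high and made up most of the LGR5-negative sums, with 227 and 194 CPM. HOXC13 was 3.42-fold and LEF1 1.54-fold higher. SHH, a signal of the matrix, had 233 and 134 counts in LGR5-high and 0 and 3 in LGR5-negative. Sebocyte genes were higher for 2 of 3 tested, at 970 to 1070 CPM against 971 to 1030 CPM, and of the erythroid genes none was tested, with at most 8 counts of HBB in a library. The part of these cells in the difference of the mitosis genes was not tested.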

How the data were processed

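RNA sequencing of the 4 sorted libraries was analysed from the table of raw counts that the authors deposited, 1 column per library, all of which were used. Libraries were made with poly(A) selection and sequenced in pairs. The submitters' processing notes name Trimmomatic 0.36, STAR 2.5.2b and featureCounts of Subread 1.5.2, and the genome build, annotation and strand setting are not given in the sources used here, so no coordinates are printed. Of the 40 members, 18 overlap another gene's span in the RefSeq table of Sscrofa11.1, used for names and neighbours only, and reads shared with those genes cannot be told apart. An entry without a name held 0.36% to 0.626% of counts and was left out. A gene with 3 counts had 0.0872 to 0.105 CPM, and this floor speaks to counting error alone, as PCR copies of a molecule were counted separately.

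Fits used edgeR 4.0.16 under R 4.3.3. The filter was filterByExpr (minimum count 10, minimum total 15), and counts were scaled by TMM and tested by the quasi-likelihood test, 2-sided, with the population as the only term. The study's methods name a test per gene on 2 groups, which was run as an alternative. Standard errors were derived from the fold change and the F statistic. The log2 ratios within a pig used a prior count of 2. Pairing follows from the animal in the labels, and the 2 libraries of a pig deviated together from their population means, with a correlation of 0.37 across genes. P-values rest on 2 pigs, and an exact permutation test of 2 libraries against 2 cannot go below 0.333. The common dispersion, the variation estimated over all genes, was 0.0223 without the block and 0.0084 with it.

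Alternatives were DESeq2 size factors, library size only, no filter beyond 1 count, a filter of 10 counts in each library, the replicate block, DESeq2 1.42.0, limma-voom (limma 3.58.1), the test of 2 groups on log2(CPM + 1), adjustment by Bonferroni's method, and leaving out each library. The edgeR fits with and without the block, DESeq2, limma-voom and the test of 2 groups were tested on simulated data, where the test of 2 groups did not recover the changed genes and the others recovered most of them. The simulation had the same dispersion for all genes, no difference between pigs and changes larger than the members' median. It therefore cannot say how reliable the calls on the members are. Of 312 symbols in the lists, 302 were matched by symbol or RefSeq synonym. The members, gene lists and alternatives were chosen with earlier results of these data known. Named genes are the 40 members, LGR5, and the called genes of smallest p-value from each other list, at most 3 in each direction. PLK4, LIN9, LIN54, SHH, HBB, CD3E, CD3D and CD2 were named after their values were seen. Plots were drawn with matplotlib 3.10.9. The single-cell, imaging and RT-qPCR data of the study were not analysed here.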

Additional observations from a re-analysis of the deposited data

How the results depend on the processing

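All 40 members kept the sign of their fold change under the 9 alternatives that used every library. Leaving out 1 library in turn, 37 to 40 kept it, the number called higher lay between 0 and 30, the number called lower between 1 and 2, and the median log2 fold change between 0.56 and 1.41. The cause of the following shifts was not tested. The replicate block called 32 members higher and 2 lower, against 18 and 1 without it. With library size only, 29 were called higher, the ratio of the mean summed CPM went from 1.48 to 1.73, and over all genes 5473 were called higher and 2328 lower, against 3632 and 3508. The test of 2 groups on log2 CPM called 0 members higher and 0 lower, with 0 in either direction at an unadjusted p-value under 0.05, and 544 and 502 of all genes. Bonferroni adjustment in edgeR left 0 and 0 members, with 26 and 1 at an unadjusted p-value under 0.05, and 194 and 130 of all genes. DESeq2 and limma-voom each called 22 members higher and 1 lower. Without 1 library, between 2279 and 3169 of all genes were called higher and between 2139 and 3004 lower. Between the pigs, 12 members were called lower in 95R with library size only, against 25. A fit without 1 library treats the lone library of that population as varying like the other population, and the replicate block could not be combined with leaving out a library. Every member had at least 47 counts in every library.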
